A study of Homo sapiens
Mus musculus with 16 samples.

Results

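The H19 and IGF2 axis was taken from the human expression table of a xenograft study as the rows named H19, IGF2, IGF2R, IGF2BP1, IGF2BP2 and IGF2BP3, 6 of 23368 human genes listed. All 6 were found, and 5 passed the filter on low values, which asked 4 or more libraries to reach a value of 1; IGF2 did not. The genes were put forward with values of these libraries in view, so their levels and differences in the human table are given as a description, with estimates and intervals. Where the count of members called by the fit over all genes is given, nothing is read from it. Tumours of ScaBER, an established human bladder cancer line of squamous type, were grown in Hsd:Athymic Nude-Foxn1nu mice, which lack a normal thymus and most T cells but keep their stroma, vessels and other immune cells. Mice of 4 groups were treated for 14 days. They received vehicle (methylcellulose with Tween80), or nintedanib (40 mg/kg), or alpelisib, also called BYL719 (25 mg/kg), or these doses of both agents together. Nintedanib blocks FGF, VEGF and PDGF receptor kinases, and alpelisib blocks the alpha form of PI3-kinase. Each group had 4 libraries, 16 in all, of the same line and mouse strain, prepared from whole tumours with a 3′ mRNA-seq kit that reads the ends of polyadenylated transcripts; human and mouse genes were deposited in separate tables.

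H19 is a long non-coding RNA made from the maternal chromosome, and IGF2, its neighbour on chromosome 11, is a growth factor made from the paternal one. An imprinting control region between them binds CTCF on the maternal copy and, when methylated on the paternal copy, does not, so that shared enhancers act on one gene or on the other. IGF2 signals through IGF1R and the insulin receptor, upstream of PI3-kinase, while IGF2R, the cation-independent mannose 6-phosphate receptor, carries IGF2 to lysosomes and sorts lysosomal enzymes. IGF2BP1, IGF2BP2 and IGF2BP3 are RNA-binding proteins, named after IGF2 messenger RNA, that act on the stability, translation and location of many transcripts and are known as oncofetal proteins in tumours. H19 is an oncofetal transcript as well, abundant in fetal tissue and known to be expressed in bladder cancer.

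Deposited values were whole reads divided by 1 factor per library, and values below are on that normalized scale unless reads are named. Libraries held 8303617 to 18568119 human and 3606008 to 6850491 mouse reads. All 10 markers of squamous or basal epithelium, among them KRT5, KRT14 and TP63, were read in the human table in all 16 libraries. Of 8 genes of other cell types, the human table held COL1A1 at a median of 51930, COL3A1 at 109 and PTPRC at 22.4, while DES and ADIPOQ had medians of 0. In the mouse table, 10 skeletal muscle genes took 4.12% of reads in nintedanib library 4 and 2.59% in combination library 1, against 0.00172% to 0.599% in the other 14. The labels do not say whether each library came from its own mouse, so the spread between libraries may be partly technical. In whole tumours fewer cells of a type and less RNA per cell cannot be told apart.

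H19 was among the 3 genes with the most human reads in every library. It held the first place in vehicle library 1 and combination library 2, and was at the second place or above in 14 of 16. Where H19 was not first, MTRNR2L8 was, a nuclear gene close in sequence to a gene of the mitochondrial genome. Its reads numbered 103188 to 587399 per library, 4558922 in all. The share of human reads had a median of 1.67% and ran from 1.003% (95% exact binomial interval 0.998% to 1.01%) in combination library 4 to 3.16% (3.16% to 3.17%) in combination library 2. Intervals and floors given here cover counting error only.

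The normalized values of H19 were 348907, 197208, 345616 and 243696 in the vehicle libraries 1 to 4, with a mean of 283857 ± 75645 (SD, n = 4). They were 466518, 221554, 217747 and 208520 under nintedanib, with a mean of 278585 ± 125409 (SD, n = 4). Under alpelisib they were 243170, 305967, 327282 and 193894, with a mean of 267578 ± 60728 (SD, n = 4). All 4 groups overlapped, and library 1 stood high within the nintedanib group. With both drugs the values were 229489, 467571, 164165 and 120850, with a mean of 245519 ± 154623 (SD, n = 4). The combination group held both the highest and the lowest of the 16 values, 3.87-fold apart, and had the widest spread of the 4 groups.

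**Figure D1:**
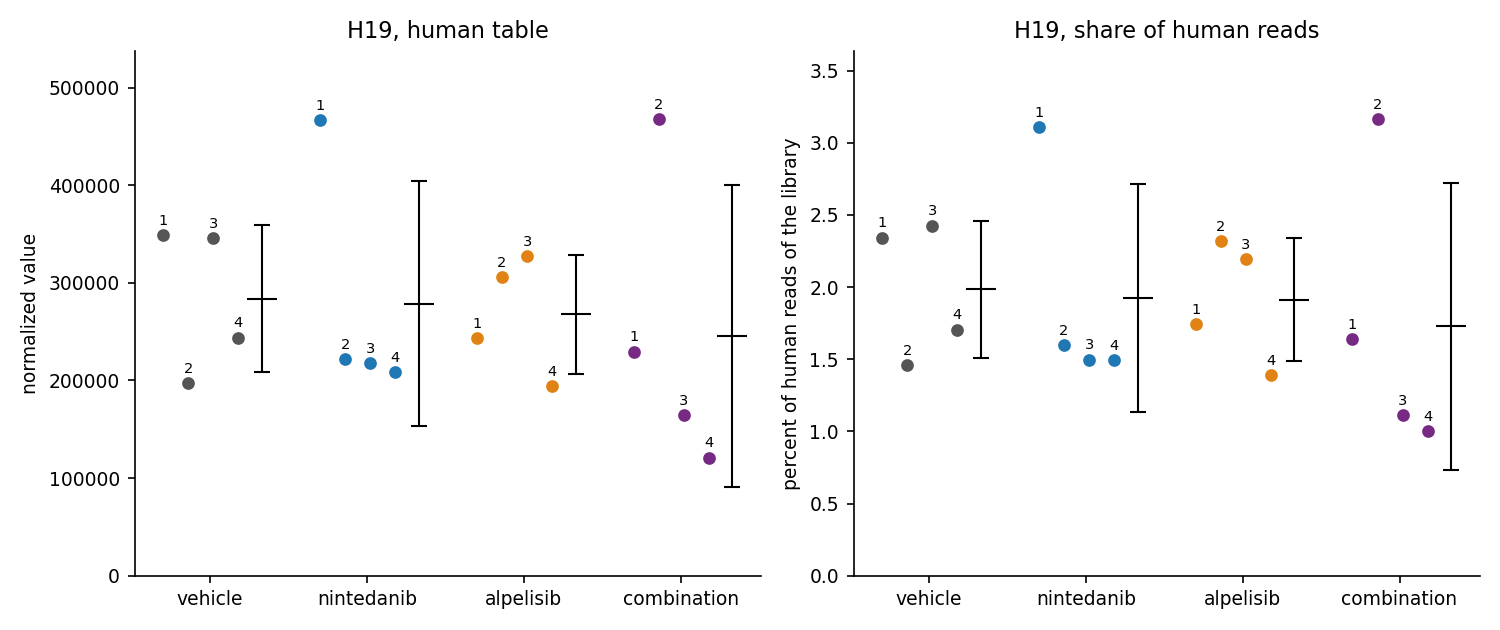
H19 in human reads of 16 ScaBER xenograft libraries, by treatment group. The vertical axes are the normalized value (left) and the percent of the library's human reads (right); each numbered point is 1 library, and the bars are the mean ± SD of 4 libraries. The 4 groups overlap, and the combination group holds both the highest value, 467571, and the lowest, 120850.

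On the log2(value + 1) scale, H19 differed from vehicle by -0.08 (SE 0.45, 95% interval -1.02 to 0.87) with nintedanib and by -0.07 (-1.02 to 0.87) with alpelisib. Single libraries turned the sign of both: leaving 1 out gave -0.35 (without nintedanib library 1) to 0.04 (without vehicle library 1) for nintedanib, and -0.24 (without vehicle library 2) to 0.07 (without alpelisib library 4) for alpelisib. The difference was -0.36 (-1.30 to 0.58) with both drugs, and combination library 2 or 4 set much of it: it was -0.74 without the former and -0.08 without the latter. The log2 difference of the combination was -0.29 against nintedanib and -0.29 against alpelisib, with intervals of -1.23 to 0.66 for both. The interaction, the part of the combination's difference beyond the sum of the single drugs' differences, was -0.21 (-1.54 to 1.12). All these intervals include 0, and the first of them still allows a fold of 0.494 to 1.82. Between libraries of the same group, the residual SD of H19 was 0.57 log2, against a median of 0.45 over all genes tested, and 60.3% of genes had a lower one. Combination library 4 also had the lowest normalized total of all human libraries, 12054536 against 13207357 to 15003465 in the other 15.

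IGF2 was nearly unread in the same cells. It had 0 reads in 14 of 16 libraries, 1 read in combination library 1, a value of 1.05, and 4 reads in combination library 4, a value of 2.69. These 5 of 234283163 human reads make 0.0213 RPM (reads per 1000000 human reads), with a 95% exact binomial interval of 0.00693 to 0.0498. In the vehicle, nintedanib and alpelisib groups, 0 reads allowed up to 0.0525, 0.0515 and 0.0502 RPM, taking 3 reads over the group as the limit. H19 thus stood above IGF2 in all 16 libraries. No fold between groups is given for IGF2, since the groups were at or near this limit.

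Overlapping genes bear on that zero. In the RefSeq gene table, IGF2 overlaps the read-through gene INS-IGF2 the microRNA gene MIR483 and the antisense gene IGF2-AS, all also listed in the human table (the last as IGF2-AS1), and how reads in 2 genes were counted is not given in the sources used here. INS-IGF2 had 1 read in all, in combination library 4, MIR483 had none and IGF2-AS1 had 3, so few reads were listed under those names either. Whether reads in overlapping genes were dropped was not tested. H19 itself overlaps MRPL23 and the microRNA gene MIR675, and IGF2BP3 overlaps MALSU1.

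The 8 listed genes on each side of H19 in RefSeq order on chromosome 11 showed no other gene at its level. Towards CTSD, which encodes the lysosomal protease cathepsin D, the adjoining genes were MRPL23-AS1, at 2.26 to 17.8, and MRPL23, a mitochondrial ribosomal protein gene with a median of 590. TNNT3, a fast muscle troponin gene, had a median of 80.2 and reached 358. LSP1 had a median of 136, and CTSD itself a median of 4515. On the other side, beyond IGF2 and the genes that overlap it, INS had 5 reads and TH, the tyrosine hydroxylase gene, had 65. MIR4298, MIR675, MIR483 and MIR4686 were at 0 reads in all libraries, in a kit that reads polyadenylated ends. Over 16 libraries the correlation with H19 was 0.60 for LSP1, 0.47 for CTSD and between -0.33 and 0.26 for the other 6 tested neighbours, as a description over libraries that share depth and processing. No neighbour was called in any of the 6 human comparisons.

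IGF2R, the receptor that removes IGF2, was read in all 16 libraries. Its values were 194, 331, 350 and 252 in vehicle, 313, 247, 453 and 318 with nintedanib, 379, 257, 228 and 236 with alpelisib, and 311, 189, 325 and 362 with both. The group means were 282 ± 72.0, 333 ± 86.3, 275 ± 70.6 and 297 ± 74.6 (SD, n = 4) in that order. Each group spanned much of the range of the others, and the extremes lay in combination library 2 and nintedanib library 3. The log2 differences from vehicle were 0.24 (95% interval -0.27 to 0.75) with nintedanib, -0.03 (-0.54 to 0.48) with alpelisib and 0.07 (-0.44 to 0.58) with both. With 1 library left out they ran from 0.08 (without vehicle library 1) to 0.37 (without nintedanib library 2), from -0.19 (without vehicle library 1) to 0.09 (without vehicle library 3) and from -0.09 (without vehicle library 1) to 0.27 (without combination library 2).

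The 3 binding proteins differed widely in reads, in the order IGF2BP2, IGF2BP3 and IGF2BP1. IGF2BP2 had 36950 reads in all, or 158 RPM, IGF2BP3 had 5364, or 22.9 RPM, and IGF2BP1 had 49, or 0.209 RPM. The kit reads 1 end per transcript and these figures are not divided by length, so the order is one of reads and not of protein. IGF2BP2 was above IGF2BP3, and IGF2BP3 above IGF2BP1, in every library.

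IGF2BP2 was the steadiest of the members. Its values were 1808, 1677, 2626 and 2261 in vehicle, 2644, 2717, 2364 and 2168 with nintedanib, 2001, 1749, 2221 and 2075 with alpelisib, and 2207, 2047, 1885 and 2548 with both. The means were 2093 ± 434, 2473 ± 254, 2011 ± 197 and 2172 ± 283 (SD, n = 4), and all groups overlapped. The residual SD was 0.20 log2, and only 6.35% of genes tested had a lower one. The log2 difference between nintedanib and vehicle was 0.26 (95% interval -0.08 to 0.59), and the other 5 estimates lay between -0.19 and 0.11.

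IGF2BP3 was the only member whose nintedanib libraries all lay above the vehicle libraries. The vehicle values were 158, 296, 251 and 269, and those with nintedanib 412, 434, 324 and 394, with means of 244 ± 59.9 and 391 ± 47.7 (SD, n = 4). With alpelisib they were 351, 369, 251 and 266 (mean 309 ± 59.4, SD, n = 4), and with both drugs 267, 162, 229 and 589 (mean 312 ± 190, SD, n = 4). Both of the latter groups overlapped vehicle, and combination library 4 held the highest value of the 16. In all, 1 of 5 members did not overlap between nintedanib and vehicle, where 8.08% of all genes tested did not overlap; genes higher with nintedanib without overlap made up 4.86% of all genes tested. For the other pairs of groups the members' count was 0 of 5, against backgrounds of 1.92% for alpelisib and 2.86% for the combination, each against vehicle, and of 3.5% and 3.09% for the combination against nintedanib and against alpelisib. Nothing is read from these counts, since the members were chosen on the same values.

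The log2 difference of IGF2BP3 between nintedanib and vehicle was 0.71 (SE 0.29, 95% interval 0.12 to 1.30), a fold of 1.64. Leaving out single libraries moved it between 0.52, without vehicle library 1, and 0.82, without vehicle library 2. It was 0.36 (-0.23 to 0.95) with alpelisib and 0.22 (-0.37 to 0.81) with both drugs. With 1 library left out, the former ran from 0.17 (without vehicle library 1) to 0.47 (without vehicle library 2), and the latter from -0.14 (without combination library 4) to 0.48 (without combination library 2), a change of sign. The interaction was -0.85 (-1.69 to -0.01), and the combination library with the highest or lowest value decided its size: it was -1.21 without combination library 4 and -0.59 without combination library 2.

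IGF2BP1 was at the edge of detection. It had 3, 7, 1 and 1 reads in the vehicle libraries, 1, 1, 5 and 2 with nintedanib, 2, 0, 0 and 2 with alpelisib, and 11, 3, 1 and 9 with both. Its mean values were 3.16 ± 3.23, 2.45 ± 1.96, 0.903 ± 1.07 and 5.39 ± 4.53 (SD, n = 4). The combination and alpelisib groups overlapped. The log2 difference between them, 1.66 (95% interval 0.29 to 3.03), depended on the pseudocount added before the log: it was 1.66 with 1 and 3.26 with 0.1.

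**Figure D2:**
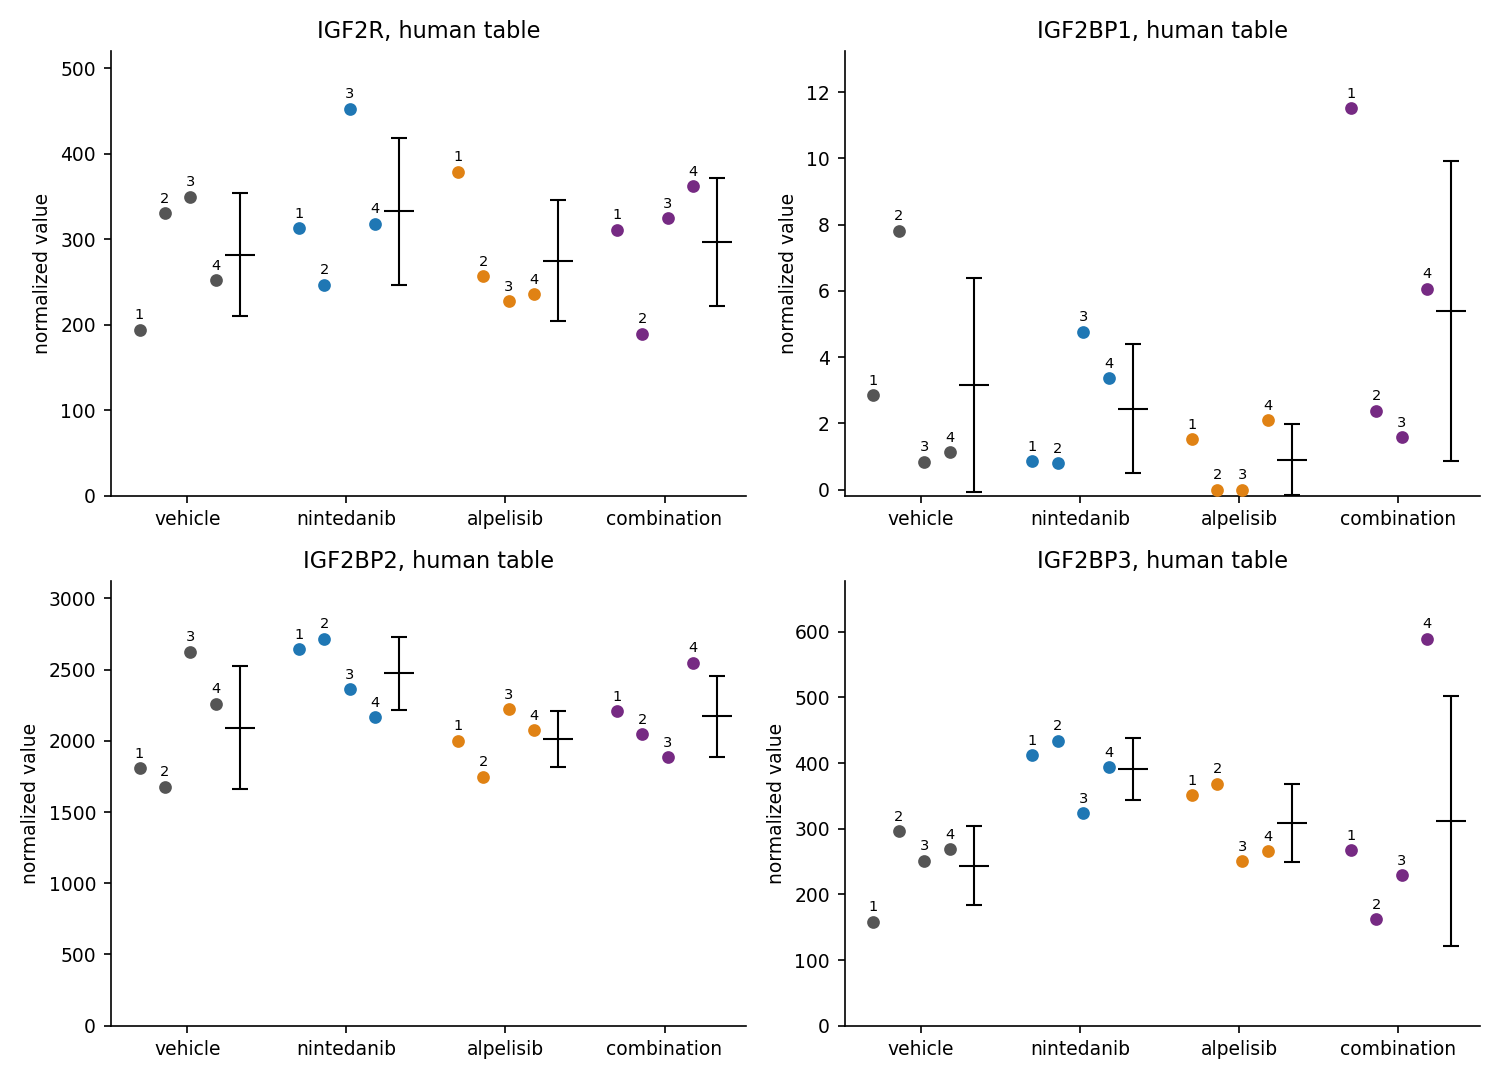
IGF2R and the 3 IGF2BP genes in human reads, by treatment group. The vertical axes are normalized values with a scale of their own per gene, each point is 1 library and the bars are the mean ± SD of 4 libraries, which for IGF2BP1 reach below 0 in vehicle and alpelisib. The nintedanib points of IGF2BP3 (324 to 434) lie above its vehicle points (158 to 296), and the groups overlap for the other 3 genes.

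Across the 6 human comparisons, 0 of the 5 members tested were called by limma at an adjusted p under 0.05. Hardly any gene was: the share of all genes called was 0% for nintedanib, alpelisib and the combination against vehicle, 0% for the combination against nintedanib and for the interaction, and 0.00566% (1 gene) for the combination against alpelisib. At an unadjusted p under 0.05 the same comparisons held 2045, 438, 1441, 1638, 1100 and 1492 genes. edgeR called 2 genes and DESeq2 71 genes between nintedanib and vehicle, and no member was called by either tool in any comparison. The estimate was above 0 for 3 of 5 members with nintedanib (median 0.24, all genes 0.02), for 1 of 5 with alpelisib (median -0.04, all genes 0.01) and for 4 of 5 with both (median 0.07, all genes 0.03). Leaving out 1 library turned the sign with both drugs for 3 of those 4: IGF2R (-0.09 to 0.27), IGF2BP2 (-0.03, without vehicle library 2, to 0.18) and IGF2BP3 (-0.14 to 0.48). These 3 comparisons share the vehicle libraries.

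**Figure D3:**
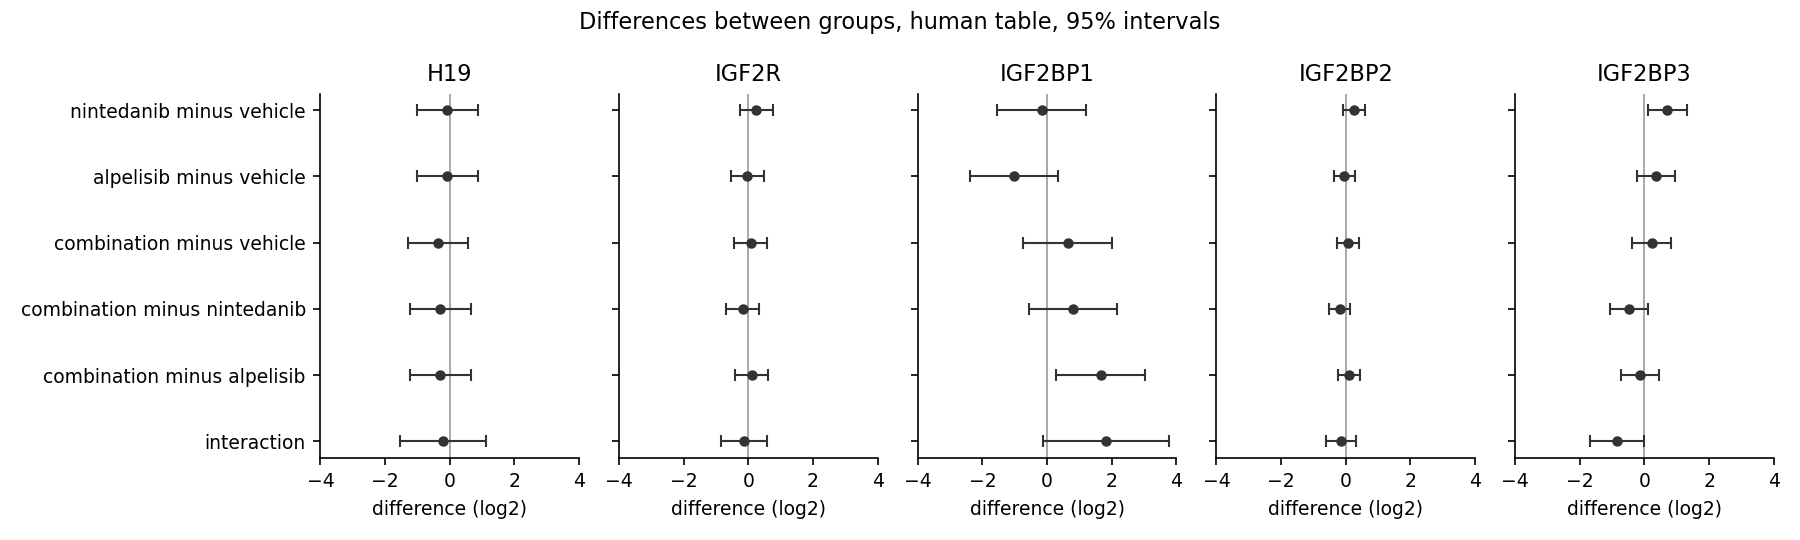
Estimated differences of the 5 members tested in 6 human comparisons, in log2(value + 1), with 95% intervals from limma over 16 libraries. The grey line marks 0. The widest intervals belong to IGF2BP1 and the narrowest to IGF2BP2, and the nintedanib interval of IGF2BP3 (0.12 to 1.30) lies above 0.

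Between libraries, H19 ran opposite to IGF2R and IGF2BP3, with r of -0.47 for both over 16 libraries. IGF2R and IGF2BP3 ran together, with r = 0.56, and IGF2BP2 and IGF2BP3 with r = 0.46. For H19 and IGF2BP2 r was 0.03. Within groups the larger values were -0.50, -0.59, 0.54 and 0.33 in that order. Each shrank without the 2 libraries farthest from the median of the second gene of its pair, to -0.22, -0.17, 0.39 and 0.26. Leaving out the farthest libraries also narrows the range, so how far the values rest on them cannot be told. All genes of a library share 1 depth and 1 scaling factor.

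Among the 5 tested genes whose pattern over the 16 libraries was most like that of H19 were PNPLA6 (r = 0.90), IDH3G (0.89), PPDPF (0.88) and PLP2 (0.86). PNPLA6 encodes a phospholipase and IDH3G a subunit of mitochondrial isocitrate dehydrogenase. These 4, like H19, had their lowest value in combination library 4, where PPDPF was at 7547 against a median of 16624. For IGF2BP3 the closest were ZCCHC11 (0.96), MRE11A (0.95) and SESN3 (0.95), all highest in combination library 4, as IGF2BP3 was. ZCCHC11 adds uridines to RNA, MRE11A is a DNA repair nuclease and SESN3 is a stress-response protein. For IGF2BP2 they were SLC16A1 (0.94), a lactate transporter gene, RBPJ (0.93), the DNA-binding partner of Notch, and LMAN1 (0.90), a cargo receptor of the secretory pathway. IGF2R was closest to DSTN (0.85), HIST1H2AM (0.84) and TMEM5 (0.84). IGF2BP1 was closest to KLHL11 (0.86), SBDSP1 (0.81) and ZNF684 (0.77), at the low counts given above. These are rankings over 17663 genes, with no p.

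The rest of the pathway was described with 7 lists of 109 genes, of which 106 were listed and 92 tested. None of the 92 was called higher or lower by limma in any of the 6 human comparisons, and edgeR and DESeq2 called none either. At an unadjusted p under 0.05 there were 14 of 92 with nintedanib, 1 with alpelisib and 11 with both, each against vehicle. Over all 17663 genes tested, 2045, 438 and 1441 were under it in the same comparisons, and nothing is read from the list counts.

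Of the ligands, receptors and adaptors that IGF2 shares, 11 of 13 were tested. IGF1, the other ligand, had means of 209 ± 38.3 in vehicle and 310 ± 62.5 with both drugs (SD, n = 4), above the reads of IGF2 in every library. IGF1R, the receptor of both, had means of 607 ± 106 and 794 ± 212 (SD, n = 4) in the same groups. Their log2 differences between the combination and alpelisib were 0.61 (SE 0.26, limma adjusted p = 0.562) and 0.37 (SE 0.19, limma adjusted p = 0.622). Between nintedanib and vehicle these differences were 0.18 and 0.32. GRB10, an imprinted adaptor that dampens signals of these receptors, differed by -0.62 between nintedanib and vehicle (SE 0.26, limma adjusted p = 0.378). With both drugs GRB10 differed from vehicle by -0.33. The median difference of the list with nintedanib was 0.14, and 0.02 over all genes.

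Of the IGF-binding proteins and their proteases, 11 of 13 were tested. IGFBP3, the main carrier of IGFs in blood, had 1385, 1086, 1778 and 1864 in vehicle and 2414, 3974, 3767 and 2613 with both drugs. The means were 1528 ± 361 and 3192 ± 792 (SD, n = 4), and the groups did not overlap; 1.79% of all genes tested were higher in the combination without overlap. The log2 difference was 1.06 (SE 0.27, limma adjusted p = 0.421), higher in 4 of 4 libraries, and it did not pass the adjustment over 17663 genes. With nintedanib alone the IGFBP3 mean was 2545 ± 775 (SD, n = 4), a log2 difference from vehicle of 0.72. The combination differed from nintedanib by 0.34. IGFBP6, which prefers IGF2 as its ligand, differed by -0.74 between the combination and alpelisib (SE 0.27, limma adjusted p = 0.538). STC2, an inhibitor of the IGFBP-cleaving protease PAPPA, differed by 1.24 (SE 0.49, limma adjusted p = 0.544) in that comparison. Nintedanib alone differed from vehicle by -0.57 for IGFBP6 and by 0.56 for STC2.

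For mannose 6-phosphate sorting, the second role of IGF2R, 16 of 16 listed genes were tested. M6PR, the smaller mannose 6-phosphate receptor, had 1381, 1408, 1593 and 1450 in vehicle and 1174, 1163, 1129 and 971 with nintedanib, with no overlap. The log2 difference was -0.40 (SE 0.16, limma adjusted p = 0.376), and 3.22% of all genes were lower without overlap. With both drugs M6PR differed from vehicle by -0.25. SORT1, a sorting receptor for lysosomal proteins, had 205, 191, 170 and 234 in vehicle and 313, 388, 331 and 426 with nintedanib, again with no overlap. Its log2 difference was 0.86 (SE 0.28, limma adjusted p = 0.291), and 4.86% of all genes tested were higher without overlap. The adjusted p was 0.0478 when limma was fitted to those 8 libraries alone, a setting that called more genes in this comparison than the main fit. It was the 1 fit that passed of 178 of named list genes under other settings. Genes were named for a small p, so nothing is read from it. With both drugs SORT1 ran from 108 to 422, a log2 difference from vehicle of 0.26. GNPTAB, which makes the mannose 6-phosphate tag, differed by -0.67 between the combination and nintedanib (SE 0.26, limma adjusted p = 0.431). Against vehicle GNPTAB differed by 0.51 with nintedanib and by -0.16 with both drugs. In the list 4 of 16 genes were above 0 with nintedanib (median -0.14, all genes 0.02).

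Of 28 other imprinted genes, 21 were tested, and MEG3, DLK1, ZIM2, NDN, MAGEL2, SNRPN and NNAT were below the filter. MKRN3 differed by 2.30 between the combination and alpelisib (SE 0.81, limma adjusted p = 0.537), at values of 0 to 23.7 over all libraries. NAP1L5 had an interaction of -1.96 (SE 0.76, limma adjusted p = 0.774), at values of 3.18 to 37.7. The list's median difference with nintedanib was 0.00 and with both drugs 0.15, against 0.02 and 0.03 over all genes.

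Among regulators of the imprinted domain and of H19, 17 of 19 were tested. UHRF1, which guides the maintenance of DNA methylation, had 581, 574, 507 and 538 in vehicle and 368, 345, 461 and 422 with nintedanib, with no overlap. Its log2 difference was -0.47 (SE 0.17, limma adjusted p = 0.334), and 3.22% of all genes tested were lower with nintedanib without overlap. With both drugs UHRF1 had a mean of 536 ± 99.0 (SD, n = 4), a log2 difference from vehicle of -0.06. SMC3 and RAD21, cohesin subunits that act with CTCF, differed by -1.15 (SE 0.31, limma adjusted p = 0.343) and -0.47 (SE 0.16, limma adjusted p = 0.390) between the combination and nintedanib. Against vehicle, SMC3 differed by 0.76 with nintedanib and by -0.38 with both drugs, and RAD21 by 0.20 and -0.27. SMC3 passed between the combination and nintedanib at a limma adjusted p of 0.0486 without combination library 4. That setting called 123 human genes in that comparison, against 0 with all libraries. Nothing is read from this, since SMC3 was named for its small p. With nintedanib 7 of 17 genes were above 0 (median -0.23, all genes 0.02), and with both drugs 3 of 17 (median -0.09, all genes 0.03). Over all genes tested, 51.7% and 53.5% were above 0 in these comparisons.

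All 12 transcripts listed as bound by IGF2BP proteins were tested, as were 12 of 13 listed genes of the let-7 axis, whose microRNAs regulate IGF2BP1 and other members of the list. HMGA1, a chromatin protein gene in both lists, differed by -0.41 between the combination and vehicle (SE 0.20, limma adjusted p = 0.611). GLI1, a Hedgehog transcription factor gene, differed by -1.27 in that comparison (SE 0.57, limma adjusted p = 0.610). LIN28A and LIN28B encode proteins that block let-7 maturation; LIN28B had values of 0 to 3.14, and LIN28A of 0 to 42.1. LIN28A differed by 2.29 between the combination and alpelisib (SE 0.73, limma adjusted p = 0.537), and LIN28B by 1.30 between the combination and nintedanib (SE 0.53, limma adjusted p = 0.447). DICER1, which cuts microRNA precursors, differed by -0.65 between the combination and nintedanib (SE 0.23, limma adjusted p = 0.390). Against vehicle DICER1 differed by 0.54 with nintedanib and by -0.11 with both drugs. Its limma adjusted p between the combination and nintedanib was 0.0279 without combination library 4, a setting that called 123 human genes in that comparison. Of 320 fits of named list genes with 1 library left out, 2 passed, those of DICER1 and SMC3. Both were named for a small p, so nothing is read from them. DIS3L2, the nuclease that degrades uridylated let-7 precursors, differed by 0.75 between the combination and nintedanib over all libraries (SE 0.30, limma adjusted p = 0.436). Against vehicle DIS3L2 differed by -0.69 with nintedanib and by 0.06 with both drugs.

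The mouse table gives the same genes in the host's cells, and it was not used to choose the members. The mouse share of both species' reads was 0.843% for H19, 99.5% for IGF2, 38.7% for IGF2R, 75.3% for IGF2BP1, 6.25% for IGF2BP2 and 3.77% for IGF2BP3, against 25.0% over all genes. H19, IGF2BP2 and IGF2BP3 reads were thus mostly human, and Igf2 reads mostly mouse. In single libraries the mouse share of H19 ran from 0.319% to 3.74%.

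Mouse H19 had values of 1418, 3355, 1573 and 1093 in vehicle, 2423, 1977, 1388 and 4841 with nintedanib, 2030, 2232, 1432 and 1057 with alpelisib, and 6299, 2335, 1315 and 1595 with both. Mouse Igf2 had 14.8, 65.9, 6.03 and 1.36, then 28.9, 46.1, 2.34 and 289, then 78.4, 34.3, 18.2 and 16.4, then 304, 6.53, 27.5 and 5.07 in the same order. Both genes were highest in combination library 1 and nintedanib library 4, the libraries with the most skeletal muscle reads, and all groups overlapped. The difference of mouse H19 from vehicle was 0.49 with nintedanib (SE 0.44, limma adjusted p = 0.918) and 0.48 with both drugs (SE 0.44, limma adjusted p = 0.863). Without those 2 libraries it was 0.15 and 0.01. Mouse Igf2 differed by 1.57 (SE 1.24, limma adjusted p = 0.901) and 1.13 (SE 1.24, limma adjusted p = 0.896), and by 0.54 and -0.08 without them.

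**Figure D4:**
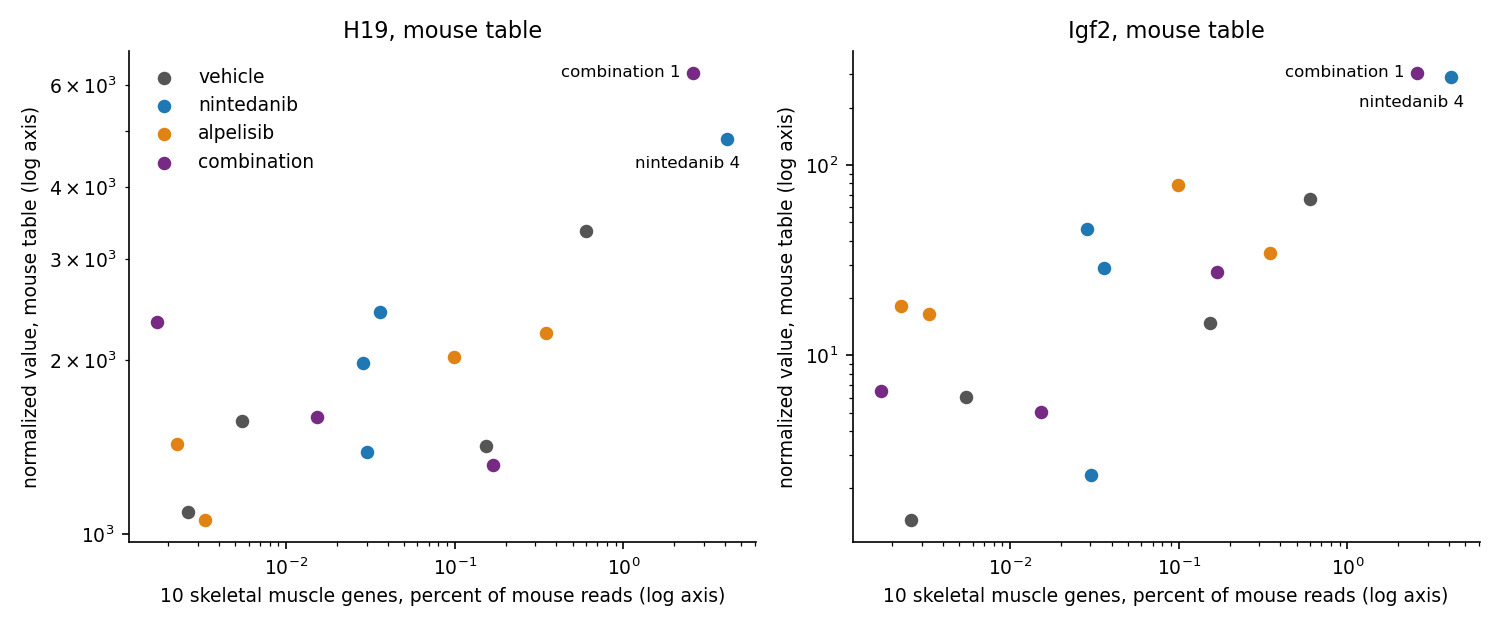
Mouse H19 and mouse Igf2 against the percent of mouse reads in 10 skeletal muscle genes. Both axes are logarithmic, the vertical one giving the normalized value, and each point is 1 of 16 libraries, coloured by group. Nintedanib library 4 and combination library 1, with 4.12% and 2.59%, hold the highest values of both genes.

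Of the 6 mouse orthologues, 0 were called by limma against vehicle with nintedanib, alpelisib or both drugs, where the share of all mouse genes called was 0%, 0% and 0.0515% (9 genes). At an unadjusted p under 0.05 there were 1051, 570 and 1341 genes, 1 of them an orthologue, and edgeR and DESeq2 called no orthologue. Igf2bp3 was the only orthologue without overlap: it had 9.22, 2.49, 6.03 and 10.9 in vehicle and 28.0, 18.5, 24.6 and 29.9 with nintedanib. Of all mouse genes tested, 3.69% did not overlap in this comparison; those higher with nintedanib without overlap made up 1.95% of all mouse genes tested. The log2 difference was 1.81 (SE 0.71, 95% interval 0.32 to 3.29, limma adjusted p = 0.734), higher in 4 of 4 libraries, on 25 reads in vehicle and 98 with nintedanib. With alpelisib it had values of 10.4, 1.04, 0.867 and 4.70, and with both drugs 2.22, 14.4, 8.03 and 36.5, overlapping vehicle. For the other 2 comparisons 0 of 6 did not overlap, against 2.1% and 3.85% of all mouse genes. These are the libraries of the human comparison, and whether human reads entered the mouse counts was not tested. Human IGF2BP3 had 1592 reads with nintedanib, against the 98 of mouse Igf2bp3. Nothing is therefore read from Igf2bp3 about human IGF2BP3. Mouse Igf2r differed by -0.56 between the combination and vehicle (SE 0.31, limma adjusted p = 0.706).

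Human and mouse values of each member were compared over the 16 libraries, since reads of 1 species can be counted in the other's table. For IGF2BP2 they ran together (r = 0.80, permutation p adjusted over 5 genes = 0.0010; rho = 0.79, adjusted permutation p = 0.0024). The r was 0.80 within groups and 0.79 without the 2 libraries farthest from the median mouse value. For IGF2R r was 0.59 (adjusted permutation p = 0.0393) and rho 0.57 (adjusted permutation p = 0.0609). The r was 0.69 within groups and 0.51 to 0.68 with single libraries left out, though its adjusted p no longer passed in 11 of those 16 cases. Without the 2 farthest libraries r was 0.45 (permutation p = 0.113). Leaving them out also narrows the range and the number of libraries, so whether the call rests on them cannot be told. For IGF2BP3 r was 0.37 (adjusted permutation p = 0.266) and rho 0.52 (adjusted permutation p = 0.0691), and for IGF2BP1 r was -0.26 (adjusted permutation p = 0.422) and rho -0.41 (adjusted permutation p = 0.139). For H19 r was 0.05 (adjusted permutation p = 0.845) and rho 0.17 (adjusted permutation p = 0.526), so the libraries with most human H19 were not those with most mouse H19. Whether reads were counted in the table of the wrong species was not tested.

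**Figure D5:**
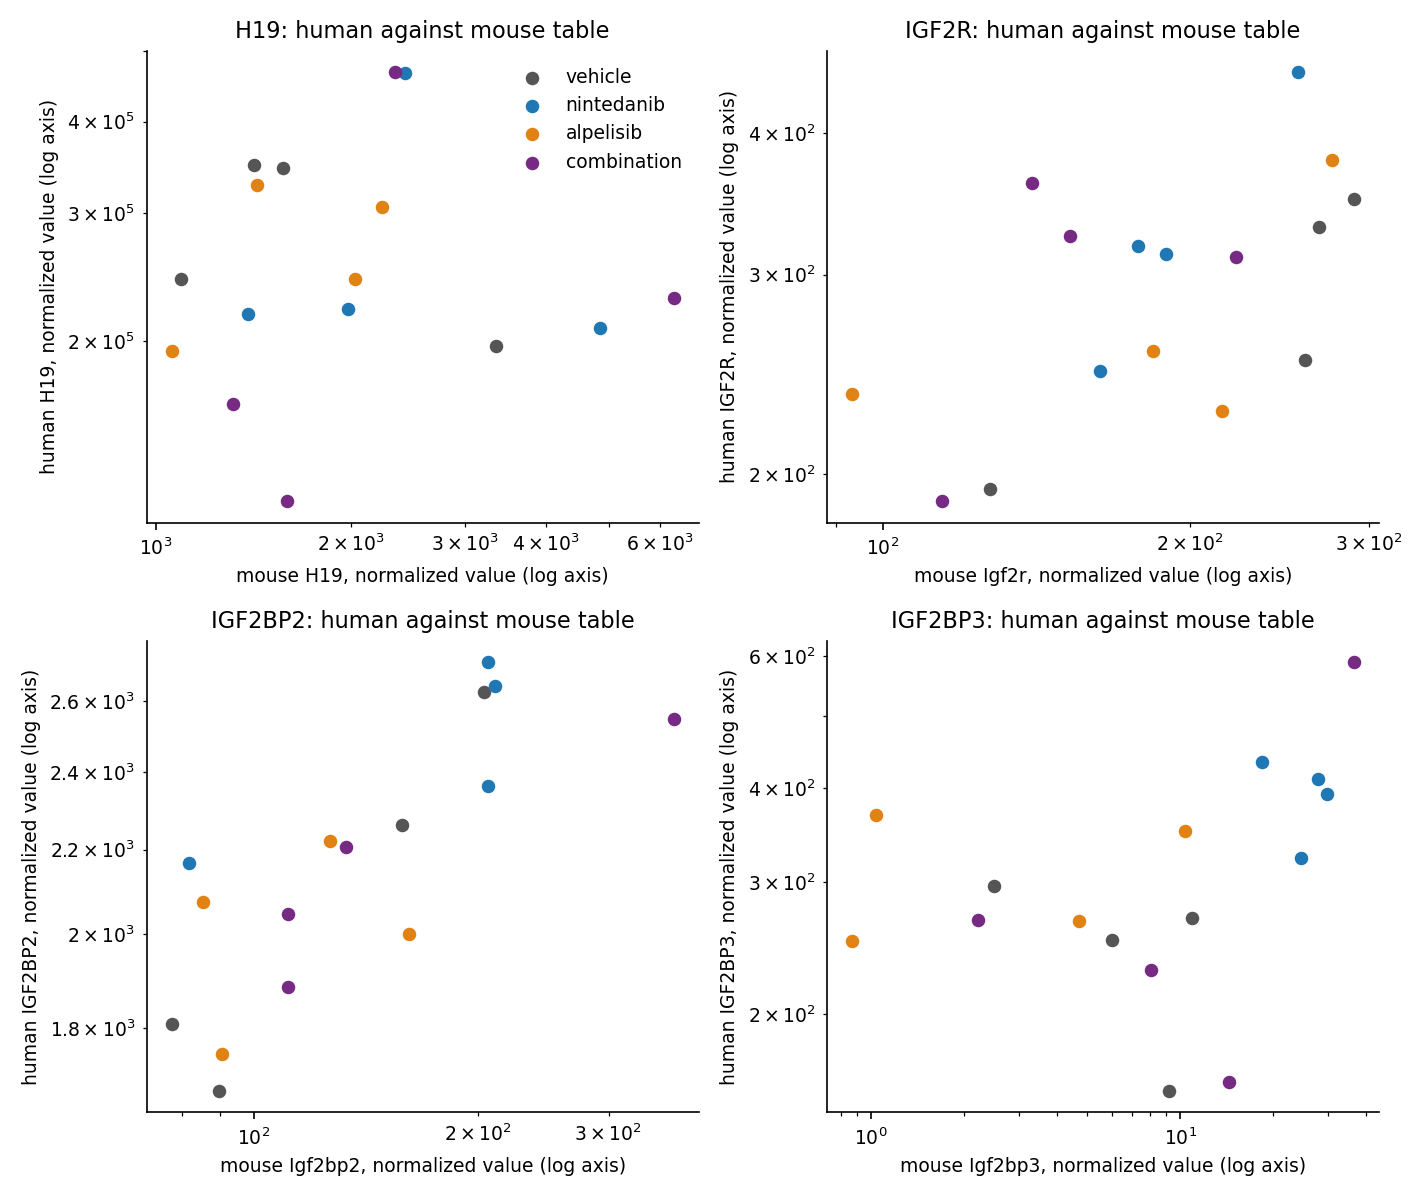
Human value against mouse orthologue value of H19, IGF2R, IGF2BP2 and IGF2BP3 over 16 libraries. Both axes are logarithmic and give normalized values, and each point is 1 library, coloured by group. The r values are those of log2(value + 1). The points of IGF2BP2 rise together (r = 0.80), and those of H19 show no relation (r = 0.05).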

How the data were processed

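Polyadenylated RNA of 16 xenografts was sequenced as 3′ mRNA-seq libraries. Per the submitters' processing notes, TopHat and the hg19 and mm10 builds were used; the sources used here do not say how reads were counted with respect to strand, overlapping genes or reads that map to both species. The deposited signal values, 1 table per species, were whole reads that the authors had divided by 1 factor per library: 100% of values came out whole within 0.01 read, and the reads were recovered from them. Genes that reached a value of 1 in 4 or more libraries were kept (17663 human, 17484 mouse). Differences came from limma 3.58.1 (trend) in R 4.3.3 on log2(value + 1), with 1 mean per group over all 16 libraries, 12 residual degrees of freedom and Benjamini-Hochberg adjustment over all genes kept, threshold 0.05. A log2 difference on this scale understates the change of low genes.

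edgeR 4.0.16 (quasi-likelihood) and DESeq2 1.42.0 were run on the recovered reads as alternatives. Correlations used 100000 permutations (2-sided). On simulated data for the combination minus vehicle (17663 human genes), 66 of 100 genes moved by 1 log2 and 99 of 100 moved by 2 were called. Of 17484 mouse genes it was 38 and 90. The moved genes had means at or above the median, so these rates do not cover low genes. Simulated counts were drawn independently for each gene, without variation shared across a library. Members, lists and tests were chosen with earlier results of these data known. From each pathway list the genes past the threshold were named, or else the 3 with the smallest p in any human comparison. Gene order and overlaps came from the RefSeq table of another build, so no coordinates are given. Of the 5 genes closest in pattern to H19, 1 is not reported here.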

Additional observations from a re-analysis of the deposited data

Results flagged for a closer look

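Groups of 4 libraries of the members, INS-IGF2, the mouse orthologues and the named list genes were checked where not all 4 values were 0. In 11 of these 126 groups the highest or lowest value was set apart from the other 3 by Dixon's rule at 95%. Chance alone flags about 5% of groups, and that rate does not hold for groups of few reads: in 3 of the 11, of INS-IGF2 and LIN28B, 1 library had 1 read and the other 3 had none. Human H19 was set apart at 466518 in nintedanib library 1, the highest of its group. INS-IGF2 was at 0.674, a single read, in combination library 4. Mouse Igf2r was low at 127 in vehicle library 1. Mouse Igf2bp2 was low at 81.8 in nintedanib library 4 and high at 367 in combination library 4. IGF1R was high at 980 in nintedanib library 2, UHRF1 low at 389 in combination library 4, SMC3 low at 536 in vehicle library 1 and DIS3L2 low at 67.1 in vehicle library 3. LIN28B stood at 1.12 in vehicle library 2 and at 0.955 in nintedanib library 3.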

How the results depend on the processing

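No member was called under any setting tried, from which nothing is read. With single libraries left out, all 480 estimates of human members moved by less than the spread between replicates, though some that lie near 0 changed sign; of 265 under other settings, 5 moved further, all of IGF2BP1 (-2.40 to 3.49). Counts of called human genes depended on the setting. Between nintedanib and vehicle (0) they were 1 with no filter, 8 with a replicate block, 89 (83 higher) with only the groups compared, 2 with edgeR and 71 (58 higher) with DESeq2, and 0 to 4 with single libraries left out. Between alpelisib and vehicle (0) they were 1 with the block, 2 with only the groups compared, 1 with DESeq2 and 0 to 1 with single libraries left out. For the combination DESeq2 called 9 against vehicle (0), and against nintedanib (0) 1 gene was called with no filter and 0 to 123 with single libraries left out, the 123 without combination library 4. Against alpelisib (1) it was 0 with quantile normalization, no filter, a pseudocount of 0.1, the block, only the groups compared or edgeR, 14 without the 2 muscle-rich libraries, 19 with DESeq2 and 0 to 1 with single libraries left out. For the interaction (0) it was 3 with the block, 10 with DESeq2 and 0 to 8 with single libraries left out, the 8 without combination library 2.

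Counts of called mouse genes with nintedanib (0) were 1 with only the groups compared, 3 without the muscle-rich libraries, 29 with DESeq2 and 0 to 3 with single libraries left out. With alpelisib (0) DESeq2 called 1. With both drugs (9) it was 1 with values scaled to both species' reads, 3 with the block, 0 with only the groups compared, 24 without the muscle-rich libraries, 75 with DESeq2 and 0 to 16 with single libraries left out, the 16 without alpelisib library 3 or combination library 1. Uncalled mouse estimates changed sign in some settings. With that scaling the alpelisib difference was 0.18 for H19 and 0.11 for Igf2bp2; without the muscle-rich libraries, that of Igf2 with both drugs was -0.075 and that of Igf2bp1 with nintedanib 0.10; the alpelisib difference of Igf2bp1 was 0.068 with edgeR and 0.075 with DESeq2. With single libraries left out these ran from -0.27 to 0.27, -0.34 to 0.12, -0.075 to 1.97, -1.25 to 0.10 and -0.63 to 0.36 in that order, and Igf2bp2 with both drugs from -0.052 to 0.60. The human-mouse correlation of IGF2R was 0.60 (adjusted permutation p = 0.0660) without the muscle-rich libraries and 0.51 to 0.68 with single libraries left out, and that of H19 -0.016 to 0.14. The cause of these changes was not tested. Replicate numbers do not pair the libraries: deviations of same-numbered libraries correlated at -0.22 to 0.15 (human) and -0.29 to 0.17 (mouse), 4 and 1 of 16 libraries were closest to one of their own number, and the block changed no call of a member. Depth limits IGF2, IGF2BP1, LIN28B and mouse Igf2bp3, which rest on few reads.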
